A study of Mus musculus with 547 samples.

Results

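Hepatoblasts of the E10.5 mouse liver bud were examined as 54 single cells, of 529 single cells in the series and 447 taken straight from embryos. They are the E10.5 cells (E, embryonic day) that were sorted through the DLK+ gate and that the labels give as hepatoblast/hepatocyte, and they fall into 3 numbered sets of 16, 22 and 16 cells. Each cell was picked by hand with a mouth pipette after sorting and amplified for 18 cycles by Smart-seq2, a protocol that reads full-length transcripts and has no molecular identifiers. The hepatoblast label was held against 5 markers: Dlk1, Afp, Lin28a and Mdk each had at least 5 reads in all 54 cells, and Hnf4a in 53. Dlk1 codes for the protein of the sort, so it is not independent of the gate. The labels give neither strain nor genotype for these embryos, and no cell was treated or cultured.

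Hepatoblasts are the bipotent progenitors of the fetal liver, which bud from the foregut endoderm, invade the surrounding mesenchyme and later give rise to hepatocytes and to cholangiocytes, the cells of the bile ducts. While they multiply they begin to secrete plasma proteins, with alpha-fetoprotein ahead of albumin, and they take up the enzymes of adult liver metabolism only over the following days. DLK1, the surface protein used for the sort, is carried by hepatoblasts and lost as hepatocytes mature.

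The cells compared with them were 197 later DLK+ cells of the same labelled type, from E11.5, E12.5, E13.5, E14.5, E15.5 and E17.5, in 18 sets of 3 to 19 cells. From E11.5 the series also sorted cells through an EpCAM+ gate, which E10.5 lacks. Those cells stand on neither side of this comparison. Bulk libraries, each of a large pool of sorted DLK+ cells and 2 a day, were used as a second measurement of the same gate, and 14 of the 18 fall on the days with picked cells. The stated purpose of the series is to chart how hepatoblasts become hepatocytes and cholangiocytes, so these cells are its starting point.

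Each E10.5 cell held 853570 to 1425915 gene reads (median 1049582.5), and 8415 to 10403 genes had at least 1 read (median 9459). Spike-in RNA of the ERCC mix took 1.07 to 3.39% of a cell's reads. Later cells held 764286 to 1587322 gene reads. The gene reads of all cells in a set were added up, giving 16333341 to 23580186 reads per E10.5 sum and 4068289 to 20578862 per later sum. What distinguishes the numbered sets (embryos, sorting sessions or library plates) is not given in the labels, so p-values here measure only the spread between sets, which may be technical. By sex-linked reads 32 cells had more from Y-linked genes and 22 more from Xist, and every set held both kinds, so each set drew on at least 2 embryos. No 2 cells had identical counts.

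Set 3 stood somewhat apart from the other two. Its cells held 35.7 gene reads per ERCC read, against 52.6 and 52.5 in sets 1 and 2. Alb, the gene of serum albumin, stood at 499 CPM in its sum (read counts scaled to a fixed sum of gene reads, here after TMM scaling, which corrects for the few very abundant genes), against 1832 and 1726, and Epcam, an epithelial surface protein, at 80.1 against 26.4 and 29. List counts that change by 2 or more calls without this set are given both ways.

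The E10.5 hepatoblasts already held the RNA of many secreted liver proteins, above all alpha-fetoprotein, at high levels, together with genes of glycolysis. Levels between genes are compared here as TPM (a transcript level that divides counts by gene length), as means over the 54 cells. Afp (ENSMUSG00000054932, GRCm38 chromosome 5, 90490737 to 90508907, + strand) stood at 31381 TPM. It was followed among named protein-coding genes by Apoa2, an apolipoprotein of high-density lipoprotein, at 6980 TPM, Mif, a secreted cytokine, at 5645 TPM and Ldha, the lactate dehydrogenase subunit of glycolysis, at 5538 TPM. Rbp4, the plasma carrier of retinol, reached 4671 TPM, and Ambp, the precursor of alpha-1-microglobulin and bikunin, 4208 TPM. The albumin gene Alb (ENSMUSG00000029368, GRCm38 chromosome 5, 90460897 to 90476602, + strand), far above all of these in the adult liver, was at 1615 TPM. Actb, a cytoskeletal gene, and Rpl32, a ribosomal protein gene, stood at 4088 and 4028 TPM. Mif and Rpl32 have near-identical pseudogene copies that can share reads, so their levels are uncertain. Only Yam1 lay above Afp, at 93624 TPM, but this gene lies inside an annotated ribosomal RNA locus on the other strand, and since the labels do not say whether reads were counted by strand, its reads cannot be told apart from those of that locus.

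The marker genes were read in CPM cell by cell, each cell's gene reads scaled to the same sum with no TMM scaling. Afp ran from 9583 to 63542 CPM over the 54 cells, with set medians of 39049, 34093 and 31296 CPM. Dlk1 (ENSMUSG00000040856, GRCm38 chromosome 12, 109452823 to 109463336, + strand), the transmembrane protein of the sort, ran from 767 to 2356 CPM with a median of 1480.5 CPM. The growth factor midkine (Mdk, ENSMUSG00000027239, GRCm38 chromosome 2, 91929805 to 91932297, - strand) was even, from 279 to 721 CPM. The RNA-binding protein gene Lin28a (ENSMUSG00000050966, GRCm38 chromosome 4, 134003330 to 134018841, - strand), which blocks maturation of the let-7 family of miRNAs, ran from 10.1 to 181 CPM. The nuclear receptor Hnf4a (ENSMUSG00000017950, GRCm38 chromosome 2, 163506808 to 163572910, + strand), a central regulator of hepatocyte genes, ran from 3.01 to 285 CPM with a median of 98.6 CPM. Each cell thus had reads of all 5 markers, though Hnf4a fell short of 5 reads in its lowest cell. The 3 sets overlapped over most of their range for all 5, as the strip plot of 18 genes shows.

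**Figure D1:**
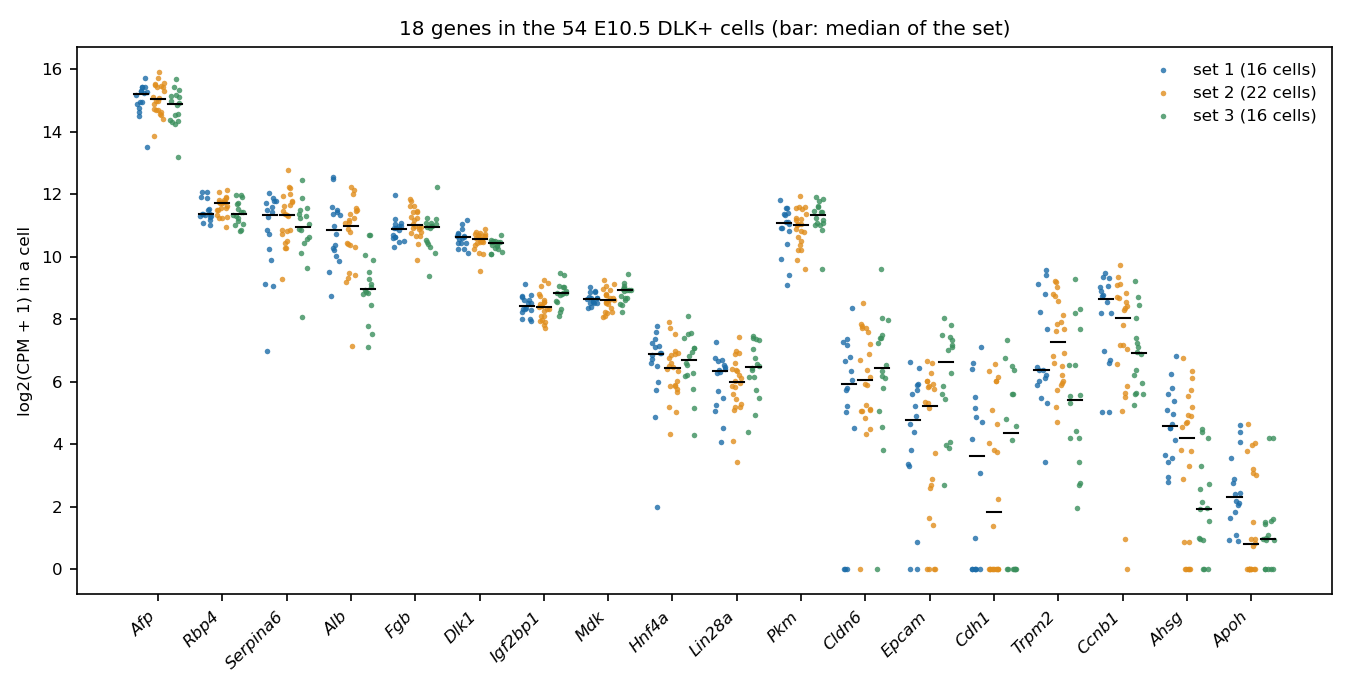
Level in each of the 54 E10.5 hepatoblasts for 18 genes (vertical axis, log2(CPM + 1)), with the cells of sets 1, 2 and 3 side by side and a bar at each set's median. In CPM of gene reads, Mdk ran from 279 to 721 CPM and Afp from 9583 to 63542 CPM, whereas Alb was lower in set 3 (median 519 CPM, against 1884 and 2094) and Ccnb1, a cyclin of mitosis, spread from 0 to 862 CPM. The plotted CPM counts spike-in reads in the total, so its values are slightly lower than these.

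Detection was counted over the 388 genes of 22 lists, some of them liver functions and some other cell types. A gene was counted as detected in a cell at 5 or more reads. Of the list genes, 97 were detected in all 54 cells and 74 in none. Among plasma carriers and apolipoproteins 11 of 16 genes were detected in every cell, and among complement, coagulation and inhibitor genes 14 of 24. Apoe, an apolipoprotein of lipid transport, ran from 1517 to 4704 CPM over cells, Fgb, a fibrinogen chain, from 688 to 4944 CPM, and Plg, the precursor of plasmin, from 68.2 to 1012 CPM. The same lists held genes that most cells lacked: Apoh, a phospholipid-binding plasma protein, was detected in 17 cells. Of 32 genes of hepatocyte metabolism, 5 were detected in every cell and 8 in none. Adh1 (alcohol dehydrogenase) and Cyp3a11 (a drug-metabolising cytochrome) were among those in none.

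Of 24 liver transcription factors, 6 were detected in every cell and 1 in none. Prox1, a homeobox factor needed for hepatoblast migration, ran from 100.1 to 629.9 CPM over the cells, and Xbp1, a factor of the secretory machinery, from 144 to 666 CPM. The bile acid receptor Nr1h4, by contrast, had 1 read in all 54 cells together. Ppara, a nuclear receptor that drives fatty acid oxidation, was detected in 9 of 16, 12 of 22 and 1 of 16 cells of the sets.

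Most genes of other cell types were at or near 0. The summed level of 62 markers of red cells, other blood cells, endothelium, mesenchyme and mesothelium was 57.2 to 68.4 CPM in the E10.5 sums and 45.9 to 124.5 CPM in the later ones. Among 12 red cell genes 10 were detected in no cell, among 16 of other blood cells 10, among 12 endothelial genes 9, among 13 mesenchymal genes 7 and among 9 mesothelial genes 3. Ptprc, Kdr, Cdh5, Col1a1, Pdgfra, Csf1r and Wt1, which define these types, were each detected in 0 cells. The genes of these lists that were found in more than a few cells were Alcam (45 cells), an adhesion molecule, Podxl (20), a sialomucin, Kit (16), a receptor tyrosine kinase, and Pdpn (12), a membrane mucoprotein. Onecut3, a homeobox factor of endoderm from the list for pancreas, gut and lung, was detected in 39 cells. Of 15 biliary markers 5 were in no cell, and Krt19, a keratin of bile ducts, was detected in 7. Another 2 were in at least 27 cells, 1 of them in all 54. The biliary list summed to 131.9 to 143.3 CPM in the E10.5 sums and 29.7 to 134.3 CPM in the later ones.

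Genes of the cell cycle, of glycolysis and of secreted liver proteins varied from cell to cell within sets beyond the spike-in trend. It was measured as the squared coefficient of variation of CPM over the cells of a set, divided by the trend of the ERCC spike-ins at the same mean, so that a ratio near 1 is what spike-ins of equal mean showed. Genes averaging 10 CPM or more in all 3 sets numbered 7556, and 450 of them had a ratio of at least 2 in all 3 sets and are called variable here (5.96%). The median ratio was 1.32, 1.44 and 1.30 in the sets. These are descriptions, with no test, since the cells of a set are not replicates of a condition.

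Afp, the most abundant of these, had ratios of 219, 71.3 and 251. The highest spike-in mean in a set was 8368 CPM, below the level of Afp, so its ratio extends the trend, and the range of 9583 to 63542 CPM is the plainer measure. Serpina6, the gene of corticosteroid-binding globulin, spread from 129 to 7259 CPM with ratios of 55.1, 49.2 and 48.6. Alb spread from 142 to 6089 CPM, and its ratio was 87.3, 50.4 and 21.9. The glycolytic gene Pkm ran from 556 to 4053 CPM with ratios of 26.6, 19.5 and 15.8, and the nuclear RNA Malat1 from 433 to 2804 CPM. Trpm2, a cation channel, ran from 3 to 779 CPM, with a lowest ratio of 11.7. Its level was far lower in the E10.5 bulk libraries, as given under other observations. Other genes of the leading 15, taken among genes with assigned symbols, included the fibrinogen chains Fga and Fgb, the vitamin E carrier Afm, Ldha, the chaperone Hspa8 and the mitotic genes Ube2c, Ccnb1 and Top2a. Mdk lay at the other end, with ratios of 0.534, 1.64 and 1.35.

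**Figure D2:**
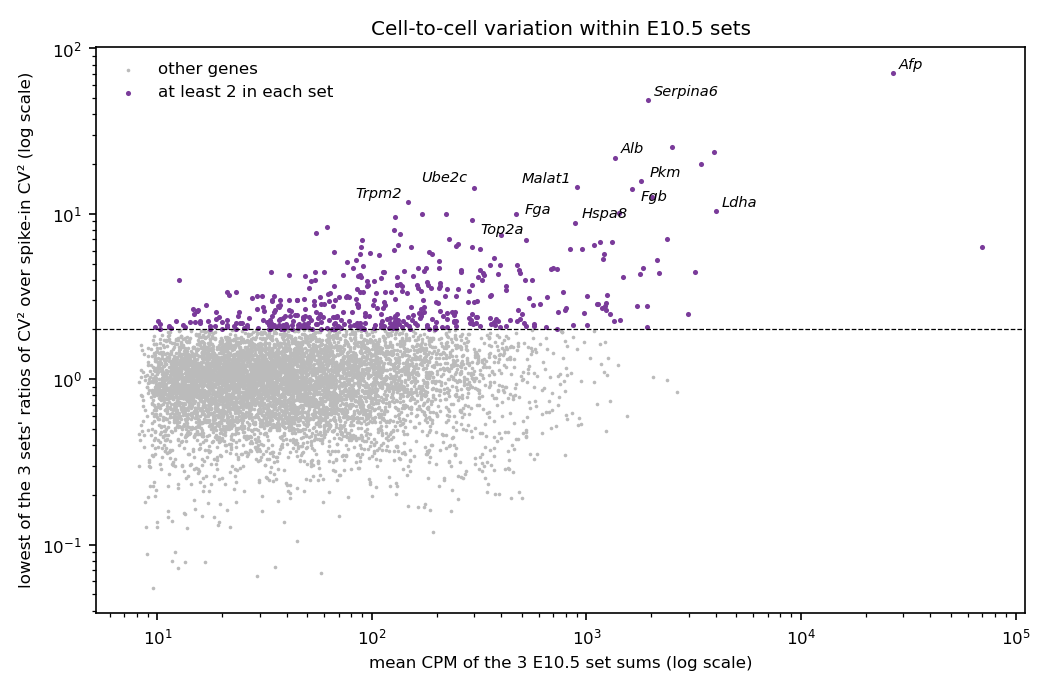
Mean CPM of the 3 E10.5 set sums (horizontal axis, log scale) against the lowest of the 3 sets' ratios of squared coefficient of variation to the ERCC trend (vertical axis, log scale) for 7556 genes. The dashed line is the ratio of 2 that called 450 genes variable, and 12 of the 15 most variable named genes are labelled, with Afp and Serpina6 at the top.

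By list, 17 of 20 G2/M genes and 15 of 20 G1/S genes were variable among those with enough reads, as were 9 of 12 glycolytic genes, 11 of 17 complement and coagulation genes and 8 of 13 plasma carriers. Fewer were variable among liver transcription factors (4 of 18), growth factor receptors (1 of 17) and matrix and migration genes (1 of 12). Of all genes with enough reads 5.96% were. The spike-in trend falls nearly in proportion to the mean, so at equal relative spread a more abundant gene has a higher ratio. Lists of abundant genes thus pass more easily, and the part of level in these counts was not tested. The oncofetal list, genes of early embryos that are silenced later, had 5 of 16, and imprinted and epithelial genes 7 of 13 each. Sex-linked genes, which differ between male and female cells, had 3 of 4. Leaving out a set raises the count because fewer sets must pass: 781, 646 and 816 genes were variable without sets 1, 2 and 3. With cells thinned to equal reads 411 genes were variable, of which 393 were among the 450.

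G1/S and G2/M genes were high in different cells. Within sets, the mean log2(CPM + 1) of the G1/S list and that of the G2/M list were inversely related over cells, with Spearman's rho of -0.83, -0.67 and -0.54 (16, 22 and 16 cells). Ccne2, a cyclin of the entry into S phase, and Ccnb1, a cyclin of mitosis, had rho of -0.81, -0.77 and -0.66. Ccnb1 and Top2a, the topoisomerase of chromosome condensation, went together over cells, with rho of 0.72, 0.85 and 0.55. Ccnb1 ran from 0 to 862 CPM and Ube2c, a ubiquitin-conjugating enzyme of mitotic exit, from 0 to 1247 CPM. The G2/M score also went with gene reads per ERCC read (rho 0.50, 0.71 and 0.35), a measure of RNA per cell, and with the number of genes with a read (0.79, 0.64 and 0.21). All of these values share the library and depth of their cell, and the part of depth in them was not tested.

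Lists of secreted proteins varied together as mean scores. The score of plasma carriers and that of complement and coagulation genes had rho of 0.64, 0.68 and 0.59 within sets, and plasma carriers and metabolism 0.78, 0.51 and 0.29. Complement and coagulation genes went against the glycolytic list, with rho of -0.54, -0.24 and -0.62. Single pairs did not all follow. Alb and Apoh, both of the plasma carrier list, had rho of -0.02, 0.01 and 0.32. Afp and Alb had rho of -0.39, 0.08 and -0.22, and Lin28a with its paralog Lin28b -0.03, -0.17 and 0.08. Epcam and Cdh1 (E-cadherin), both of epithelial junctions, had 0.48, 0.30 and 0.81. These values too share the library and depth of their cell, and the part of depth in them was not tested.

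**Figure D3:**
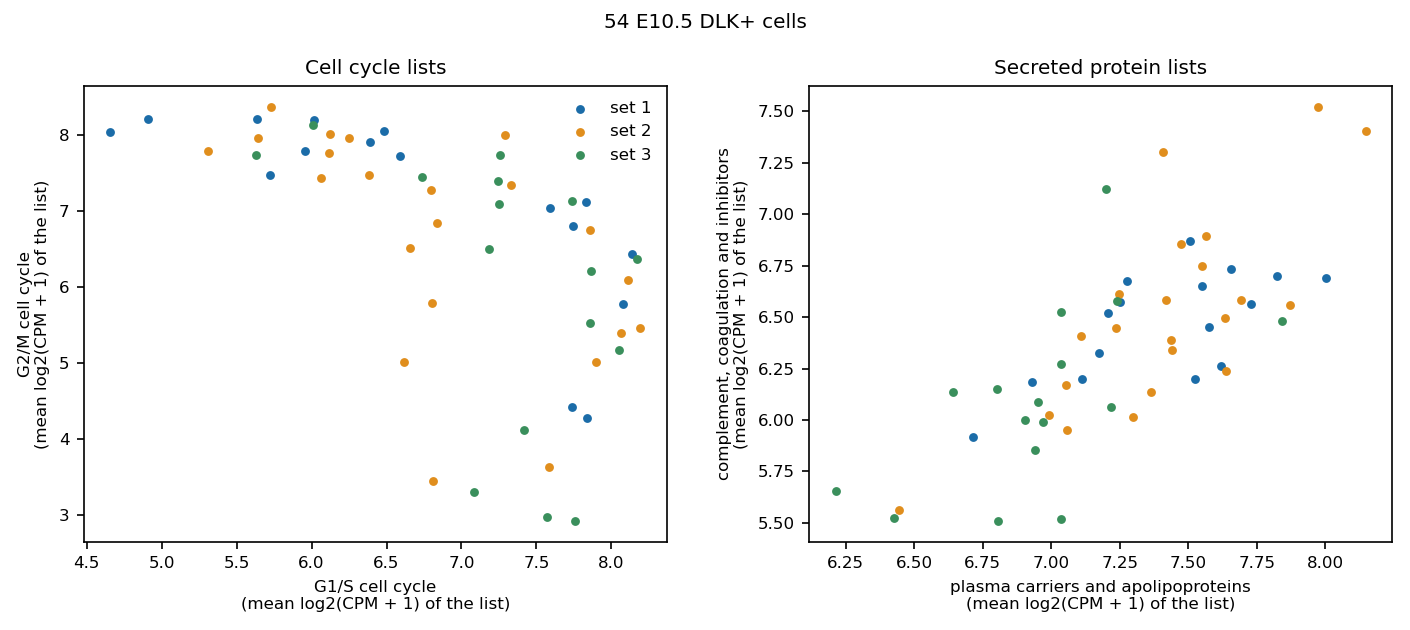
Scores (mean log2(CPM + 1) over a list) of the 54 cells by set, with G1/S against G2/M genes in one panel and plasma carriers against complement and coagulation genes in the other. The first pair runs from upper left to lower right (rho -0.83, -0.67 and -0.54 within sets), the second from lower left to upper right (0.64, 0.68 and 0.59).

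Against the mean of the later DLK+ days, the E10.5 hepatoblasts were higher in most of the tested oncofetal and glycolytic genes. They were lower in most of the tested genes for secreted liver proteins and hepatocyte metabolism. Many cell cycle genes were also higher than that mean, but none lay above all later sums. Of 16838 genes tested, 1964 were higher at E10.5 (11.7%) and 1638 lower (9.73%), at a Benjamini-Hochberg adjusted p below 0.05 in edgeR's quasi-likelihood test on set sums (3 sums against 18, n = 42 embryo sums in the fit). Values below in CPM are of set sums after TMM scaling, which lowers E10.5 values against the unscaled CPM of single cells above. The log2 change is E10.5 minus the mean of the 6 later days on a log2 scale, given ± SE, so a gene near 0 on late days can have a change that exceeds the ratio of its mean levels. The median change of all genes tested was 0.12. DESeq2 put the balance differently, with 1515 genes higher and 2014 lower, 42.9% higher of those called against 54.5%. Without set 1, 2 or 3 at E10.5 the higher genes numbered 1287, 1294 and 1173.

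Whether or not they were called, 683 of the genes tested (4.06%) had all 3 E10.5 sums above all 18 later sums, and 884 (5.25%) had all 3 below all 18. Of the genes higher at E10.5, 773 were detected in all 54 cells, 1230 in at least 27 and 403 in fewer than 6. Of those lower, 473 were still detected in all 54 cells and 93 in none.

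Oncofetal genes were mostly higher. Of 19 tested, 13 were higher, 2 lower and 4 not called, beside 11.7% higher and 9.73% lower of all genes tested. The median log2 change was 1.25 against 0.12 for all genes, and 11 were higher without set 3. The set-level values of Mdk were 326, 327 and 353 CPM at E10.5, and 0 to 192 CPM later. Its day means went from 167 CPM at E11.5 to 68.8, 30, 11.4, 5.06 and 0.368 CPM at E17.5, with no overlap with E10.5, and the log2 change was 4.48 ± 0.37 (adjusted p = 1.37e-10). Lin28a stood at 59.8, 56.8 and 72.9 CPM, against 0 to 43.6 CPM later, a change of 4.36 ± 0.57 (adjusted p = 1.23e-06). All 3 of its E10.5 sums lay above all later ones, and its mean at E11.5 was 40.5 CPM.

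Claudin 6 (Cldn6, ENSMUSG00000023906, GRCm38 chromosome 17, 23679249 to 23682446, + strand), a tight junction protein of embryonic epithelia, was higher too. Its E10.5 sums were 65.1, 83.1 and 118 CPM, its E11.5 mean 12.9 CPM and its highest later sum 22.6 CPM, a change of 5.70 ± 0.52 (adjusted p = 8.3e-10). Prtg, a neural cell adhesion protein of early embryos, stood at 63.2, 67.8 and 77.4 CPM against 0 to 23.8 CPM. Crabp2, a carrier of retinoic acid, was at 7.56, 15.4 and 10 CPM against 0 to 3.13 CPM, and was not called by DESeq2 (adjusted p = 0.109).

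The sort marker and the hepatocyte regulator showed no called difference. Dlk1 was at 1273, 1204 and 1021 CPM at E10.5 and 435 to 1522 CPM later, a change of 0.15 ± 0.27 (adjusted p = 0.8), with 7 later sums above all E10.5 sums and 5 below all. Hnf4a was at 90.5, 78.3 and 86.6 CPM and 72.6 to 133 CPM later, a change of -0.24 ± 0.24 (adjusted p = 0.561). Afp and the glypican Gpc3, oncofetal genes by their name in liver cancer, were the 2 lower members. Afp was at 28292, 29196 and 22653 CPM at E10.5 and 52702 to 134650.0 CPM later, lower by -1.58 ± 0.19 on the log2 scale (adjusted p = 1.54e-07), so even the leading gene of the early cells was below all later sums.

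**Figure D4:**
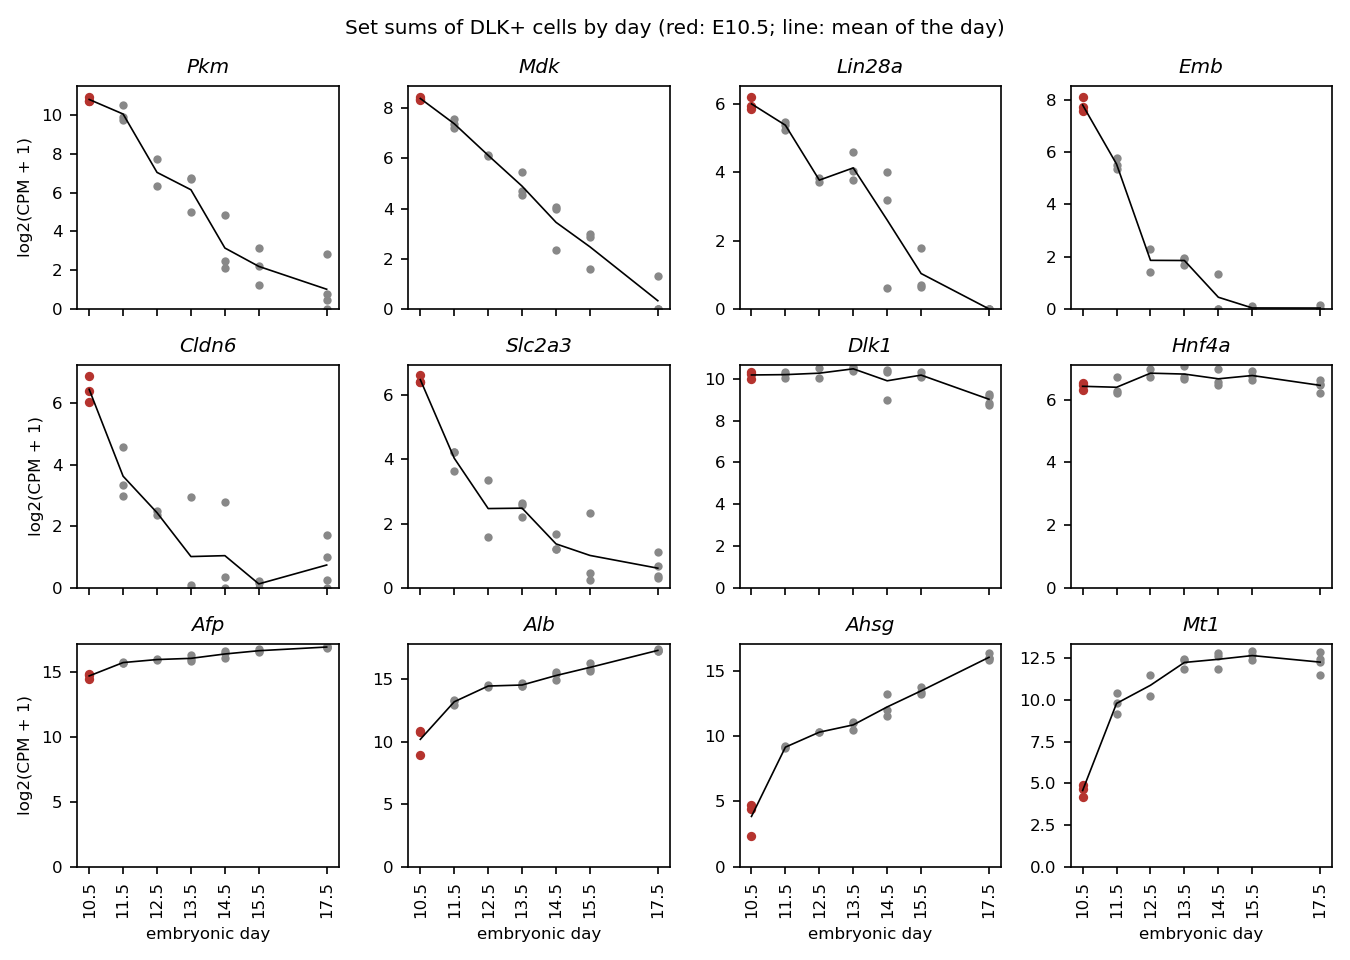
log2(CPM + 1) of each set sum (points, vertical axis, with E10.5 in red and a line through the day means) by embryonic day (horizontal axis) for 12 genes. Pkm, Mdk, Lin28a, Emb, Cldn6 and Slc2a3 are highest at E10.5, Dlk1 and Hnf4a overlap later days, and Afp, Alb, Ahsg and Mt1 are lowest at E10.5.

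Glucose uptake and glycolysis were higher in 8 of 14 genes, with none lower and a median of 0.99. The shares of all genes tested were 11.7% higher and 9.73% lower. Pkm (ENSMUSG00000032294, GRCm38 chromosome 9, 59656368 to 59679375, + strand), the pyruvate kinase of embryonic and proliferating tissues, had 1687, 1712 and 1980.4 CPM at E10.5. It was still at a mean of 1093 CPM at E11.5, then at 147 CPM at E12.5 and 1.79 CPM at E17.5, a change of 5.71 ± 0.52 (adjusted p = 8.3e-10). The neuronal and embryonic glucose transporter Slc2a3 was at 84.7, 84.1 and 97.7 CPM against 0.185 to 18 CPM. Hk2, the hexokinase that commits glucose to glycolysis, was at 109, 119 and 127 CPM against 6.59 to 65.7 CPM (change 1.99 ± 0.37). Ldhb, a subunit of lactate dehydrogenase, was at 473, 514 and 565 CPM against 14.9 to 333 CPM (1.97 ± 0.27). The sums of these 4 genes did not overlap between E10.5 and later days. Ldha and the triose phosphate isomerase Tpi1 had changes of -0.04 ± 0.18 and -0.05 ± 0.14, so the list did not move as a whole.

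Outside these lists, genes named for the size of their change included surface, matrix and developmental genes. Emb (embigin, ENSMUSG00000021728, GRCm38 chromosome 13, 117208536 to 117274415, + strand), a surface glycoprotein that partners monocarboxylate transporters, was at 188, 209 and 276 CPM at E10.5. Its mean was 45.7 CPM at E11.5 and 2.8 CPM at E12.5, and the change was 8.02 ± 0.69 (adjusted p = 2.95e-10). Mfap2, a microfibril protein, had 9.05, 9.51 and 11.9 CPM, against 2 reads in all 18 later sums together, a ratio of 1409 with a counting interval of 390 to 11638. Such intervals cover counting error only, of reads without molecular identifiers, and no spread between sets. Pxdn, a peroxidase that crosslinks basement membrane collagen, was at 12.9, 22.7 and 25.8 CPM against 0 to 2.89 CPM. Car4, a membrane carbonic anhydrase, was at 118, 199 and 256 CPM against 0 to 104 CPM. Sox11, a transcription factor of embryonic progenitors, was at 47.3, 41.6 and 46.3 CPM against 0 to 20.7 CPM. Slc25a36, a mitochondrial pyrimidine carrier, was at 24.4, 35.7 and 32.5 CPM against 0 to 17 CPM. These genes were chosen among those without overlap between E10.5 and later sums.

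Imprinted growth genes had calls in both directions. Of 18 tested, 3 were higher, 6 lower and 9 not called, beside 11.7% higher and 9.73% lower of all genes tested. The maternally repressed growth factor Igf2 was at 1254, 1279.9 and 1029 CPM at E10.5 and 1979.5 to 5461 CPM later, a change of -1.38 ± 0.18 (adjusted p = 8.25e-07). The non-coding RNA H19 of the same locus was at 413, 468 and 384 CPM against 767 to 2752 CPM (-1.71 ± 0.20), and Phlda2, a brake on placental growth, at 5.24, 12.1 and 9.12 CPM against 13.2 to 93.5 CPM (-2.61 ± 0.37). Ndn (necdin), a growth suppressor, went the other way, at 21.4, 23 and 19.5 CPM against 0 to 11.6 CPM (6.21 ± 0.87). Cdkn1c, an inhibitor of cyclin-dependent kinases, differed by 0.05 ± 0.21. Without set 3 the lower genes of this list were 3 instead of 6, and the higher ones 2 instead of 3.

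Secreted plasma proteins were lower almost throughout. Of 16 plasma carriers and apolipoproteins 14 were lower and none higher, with a median log2 change of -2.18. Of all genes tested 9.73% were lower, and 5.25% had all 3 E10.5 sums below all later ones. All 3 E10.5 sums lay below all later sums in 14 of the 16, which leaves out the called Apoc3 and takes in Mttp, which was not called. Alb was at 1832, 1726 and 499 CPM at E10.5, at a mean of 9409 CPM at E11.5 and 161111 CPM at E17.5, a change of -4.72 ± 0.40 (adjusted p = 1.83e-10). Even the highest E10.5 sum was thus well below the lowest later sum of 7866 CPM. Apoa1, the main protein of high-density lipoprotein, was at 956, 1089.8 and 816 CPM against 3171 to 34601 CPM (-3.22 ± 0.36). Rbp4, among the highest genes of these cells, was at 2334, 2623 and 2128 CPM against 4099 to 10055 CPM (-1.58 ± 0.19). Gc, the vitamin D carrier, was at 15.1, 25.2 and 14 CPM against 44.8 to 9682 CPM (-5.33 ± 0.57). Apoh had 5.61, 3.44 and 2.26 CPM against 82.5 to 11977 CPM (-8.09 ± 0.52, adjusted p = 8.76e-13).

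All 24 complement, coagulation and inhibitor genes were lower, with a median of -2.55, and 19 of them lay below all later sums. Among all genes tested these shares were 9.73% and 5.25%. Ahsg (ENSMUSG00000022868, GRCm38 chromosome 16, 22891277 to 22899449, + strand), a secreted inhibitor of mineralisation, was at 26, 20.4 and 4.24 CPM, against 546 to 85069 CPM later, a change of -7.98 ± 0.77 (adjusted p = 2.53e-09). Kng1, the source of bradykinin, was at 70.3, 70.9 and 50.1 CPM against 484 to 11967 CPM (-4.88 ± 0.32). Fgb was at 1559.6, 1843 and 1496 CPM, and its lowest later sum, 1791 CPM, overlapped E10.5 (change -1.47 ± 0.26).

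Hepatocyte metabolism had 22 of 32 genes lower, none higher and a median of -3.08, beside 9.73% lower of all genes tested. Cps1, which starts the urea cycle, was at 5.06, 1.48 and 2.35 CPM against 2.09 to 2907 CPM, so that it overlapped the lowest later sums (-5.25 ± 1.13). Adh1 had 0.232, 0 and 0 CPM against 0.385 to 3419 CPM. Outside the lists, differences of this kind were found in Gsta3, a glutathione transferase, at 1.11, 0 and 0.406 CPM against 5.38 to 1311 CPM, in Acox2, a peroxisomal bile acid oxidase, at 1.86, 1.86 and 0.271 CPM against 11.4 to 1095 CPM, and in Pla1a, a secreted phospholipase. Pla1a had 1 read in the 3 E10.5 sums, against a later level of 77.6 CPM, a ratio of 4417 with a counting interval of 793 to 174464. Ifi35, an interferon-induced gene, had 0 reads at E10.5 and was at least 216-fold lower there, with 3 reads over the group as the floor.

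Metallothioneins, small cysteine-rich proteins that bind zinc and copper, were among the genes most clearly lower at E10.5. Mt1 (ENSMUSG00000031765, GRCm38 chromosome 8, 94179082 to 94180327, + strand) was at 24.3, 28.3 and 17.1 CPM at E10.5. Later sums ran from 578 to 7763 CPM, with a mean of 937 CPM at E11.5, and the change was -7.24 ± 0.43 (adjusted p = 1.43e-13). Its neighbour Mt2 (ENSMUSG00000031762, GRCm38 chromosome 8, 94172664 to 94173568, + strand) was at 2.23, 3.51 and 1.81 CPM against 106 to 2117 CPM, a change of -8.53 ± 0.56 (adjusted p = 1.22e-12). Mt1 was detected in 42 of the 54 cells, Mt2 in 10, and neither gene's groups overlapped. Both promoters are shown because these neighbouring genes moved together. They are RefSeq windows of 300 bases (GRCm38.p6, + strand), from 250 bases before to 50 after the start of the gene. Capitals mark each match to the core of the metal response element, TGCACNC or TGCGCNC, sought on both strands.
Mt1, chr8:94178839-94179138: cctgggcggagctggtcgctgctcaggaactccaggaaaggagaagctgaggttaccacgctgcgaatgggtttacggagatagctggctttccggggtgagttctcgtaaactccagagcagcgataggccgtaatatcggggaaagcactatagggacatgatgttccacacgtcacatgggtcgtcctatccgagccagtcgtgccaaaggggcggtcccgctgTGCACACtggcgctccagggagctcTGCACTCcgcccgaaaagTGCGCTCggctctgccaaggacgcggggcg
Mt2, chr8:94172368-94172667: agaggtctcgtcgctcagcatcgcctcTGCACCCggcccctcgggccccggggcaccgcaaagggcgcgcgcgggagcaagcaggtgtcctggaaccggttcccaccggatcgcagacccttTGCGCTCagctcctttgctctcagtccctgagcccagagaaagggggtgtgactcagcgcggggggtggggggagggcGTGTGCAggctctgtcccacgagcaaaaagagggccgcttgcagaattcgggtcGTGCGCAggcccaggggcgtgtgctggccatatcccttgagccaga
The Mt1 window held 3 matches, all on the strand shown, and the Mt2 window 4, 2 on each strand. Of 32851 promoter windows of the same length, 25.7% held at least 1 match, 1.97% at least 3 and 0.517% at least 4. A match is a description of the letters, and binding was not measured here.

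Liver transcription factors were called lower or not at all. Of 24 tested, none was higher, 6 were lower and 18 were not called, with a median of -0.21, and 4 were lower without set 3. Of all genes tested 11.7% were higher and 9.73% lower. Ppara was at 9.79, 9.07 and 0.677 CPM against 14.4 to 244 CPM (-3.01 ± 0.64, adjusted p = 0.000734). Creb3l3, a membrane-bound factor of lipid genes, was at 65.6, 82.2 and 54.2 CPM against 117 to 276 CPM (-1.48 ± 0.23). Nr1h4 had 1 read at E10.5 against a later level of 23.7 CPM, a ratio of 1348 with a counting interval of 242 to 53233. Prox1 was at 204, 185 and 178 CPM against 115 to 248 CPM (0.18 ± 0.21). The call of Xbp1 (-0.62 ± 0.17) was lost without set 3.

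Epithelial genes split by member. Of 22 junction and epithelial genes 6 were higher, 7 lower and 9 not called, with a median of 0.03. Over all genes tested the shares were 11.7% higher and 9.73% lower. The E-cadherin gene Cdh1 (ENSMUSG00000000303, GRCm38 chromosome 8, 106603351 to 106670246, + strand) was at 23.5, 17.6 and 28.5 CPM at E10.5 and at 40.5 to 177 CPM later, a change of -2.16 ± 0.19 (adjusted p = 2.95e-10), and only 28 of the 54 cells had it. Cldn1, a claudin of hepatocyte junctions, was at 32.9, 29.9 and 30.8 CPM against 108 to 1237 CPM (-3.32 ± 0.33), and the simple epithelial keratin Krt8 at 264, 273 and 343 CPM against 303 to 933 CPM (-0.80 ± 0.15). Higher at E10.5 were Spint1, an inhibitor of membrane proteases, at 5.71, 12.2 and 17.4 CPM against 0 to 3.58 CPM (5.92 ± 0.90), and Krt19, at 1.11, 1.92 and 4.38 CPM against 0 to 0.795 CPM. Epcam, singled out after its values were seen, was at 26.4, 29 and 80.1 CPM against 0 to 26 CPM (4.05 ± 0.56), and 45 cells had it. The RNAs of Cdh1 and Epcam, which both code for surface proteins of epithelia, thus stood on opposite sides of their later levels. Later cells of the EpCAM+ gate are not among those compared here. The part of the gate in the differences of Epcam and Krt19 was not tested.

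Matrix and migration genes had 2 higher, 3 lower and 15 not called of 20 tested, a share near that of all genes (11.7% higher and 9.73% lower), and 1 was higher without any 1 of the E10.5 sets. Nid1, a linker protein of basement membranes, was at 4.18, 2.7 and 2.26 CPM against 19.4 to 275 CPM (-4.81 ± 0.48), and the basement membrane collagen Col18a1 at 60.8, 77 and 44.8 CPM against 137 to 1049 CPM (-2.55 ± 0.27). Fibronectin (Fn1) was at 379, 416 and 378 CPM against 557 to 5678 CPM (-1.53 ± 0.29). The laminin chain Lamb1, at 26, 29.2 and 29.6 CPM against 0 to 24.8 CPM, was higher (2.09 ± 0.60).

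Among 26 growth factor receptors 4 were higher and 4 lower, and 3 and 3 without set 3, a share near that of all genes (11.7% higher and 9.73% lower). Igf1r, the receptor of insulin-like growth factors, was at 3.85, 6.31 and 8.67 CPM against 0 to 8.36 CPM and was detected in 17 cells (5.78 ± 0.64). Erbb3, a receptor of neuregulins, was at 5.75, 3.27 and 4.15 CPM against 7.62 to 66.2 CPM (-2.28 ± 0.42). Of 27 genes that respond to Wnt, BMP, Notch or FGF signals 8 were higher and none lower, with a median of 0.92, and 5 were higher without set 3 or by DESeq2. Ccnd2, a cyclin of G1 induced by growth signals, was at 184, 225 and 368 CPM against 0 to 136 CPM (4.04 ± 0.48, adjusted p = 1.09e-07). Nkd1, an inhibitor of Wnt signalling that Wnt induces, was at 7.33, 9.24 and 30.9 CPM against 0 to 8.74 CPM (4.19 ± 1.16), a call lost by DESeq2 and without set 3. Lgr5, a receptor of R-spondins and a Wnt target, was at 71.8, 82.2 and 101 CPM against 1.15 to 79.5 CPM (2.03 ± 0.62), a call that was lost without set 2 or set 3.

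Many cell cycle genes were higher, but all overlapped later sums. Of 20 G1/S genes 11 were higher and none lower (median 0.90), and of 20 G2/M genes 9 were higher and none lower (median 1.40). Yet no gene of either list lay above all later sums. Among all genes tested 11.7% were higher and 4.06% lay above all later sums. Mcm3, part of the replicative helicase, was at 188, 214 and 219 CPM against 16.1 to 226 CPM (1.24 ± 0.24). Cenpf, a kinetochore protein, was at 107, 83.4 and 62.6 CPM against 0.282 to 99.7 CPM, with day means of 72.9 CPM at E11.5 and 3.85 CPM at E17.5 (2.24 ± 0.52). The counts depended on single sums: without E10.5 set 1, 2 or 3, 6, 7 and 6 G1/S genes were higher, and 1, 2 and 6 G2/M genes. Without E12.5 set 2 the G2/M count was 4, and without E17.5 set 1 it was 14. Counted cell by cell, with cells thinned to 700000 gene reads, each E10.5 cell had 30 to 40 of the 40 cycle genes at 5 or more reads (median 38). The range was 24 to 40 at E11.5 and 5 to 34 (median 12) at E17.5.

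Immediate early genes, a readout of handling as well as of signals, were lower in 6 of 14 genes, with a median of -1.92. They were lower in 3 of 14 without set 2 or without set 3. Lower calls were 9.73% of all genes tested with every set in. Egr1, a zinc finger factor, was at 0.278, 1.52 and 0 CPM against 2.2 to 185 CPM (-5.75 ± 1.39), and Zfp36, an RNA-binding protein that shortens cytokine messages, at 3.11, 5.13 and 4.42 CPM against 2.28 to 90.3 CPM. The summed level of the 15 listed genes was 75.4 to 87.5 CPM at E10.5 and 77.8 to 449.6 CPM later. Their part in other differences was not tested.

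The lists for other cell types were tested in the same way. Red cell genes had 0 calls among 8 tested, endothelial genes 1 of 7, other blood cell genes 2 of 14 and mesenchymal genes 2 of 9, all higher, and of 6 mesothelial genes 3 were higher and 1 lower, beside 11.7% higher and 9.73% lower of all genes tested. Over 28 settings these counts of higher calls ran from 0 to 1 in endothelial, 1 to 2 in other blood cell, 0 to 3 in mesenchymal (1 without set 3) and 2 to 3 in mesothelial genes. The calls of Erg, Spi1 and Lrrn4 in these lists each rested on 1 cell. Podxl (8.25 ± 1.29) was at 4.36, 2.56 and 8.53 CPM against 0 to 0.447 CPM, Kit (4.14 ± 1.11) at 6.22, 3.88 and 8.89 CPM against 0 to 2.54 CPM and Onecut3 (4.59 ± 1.06) at 16.4, 12.3 and 10.7 CPM against 0 to 15.6 CPM. Of 14 biliary markers 4 were higher (3 without set 3) and 1 lower. The lower call was lost in 7 of 28 settings, among them without any 1 of the E10.5 sets. The chart of calls shows the counts for 16 of the lists.

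**Figure D5:**
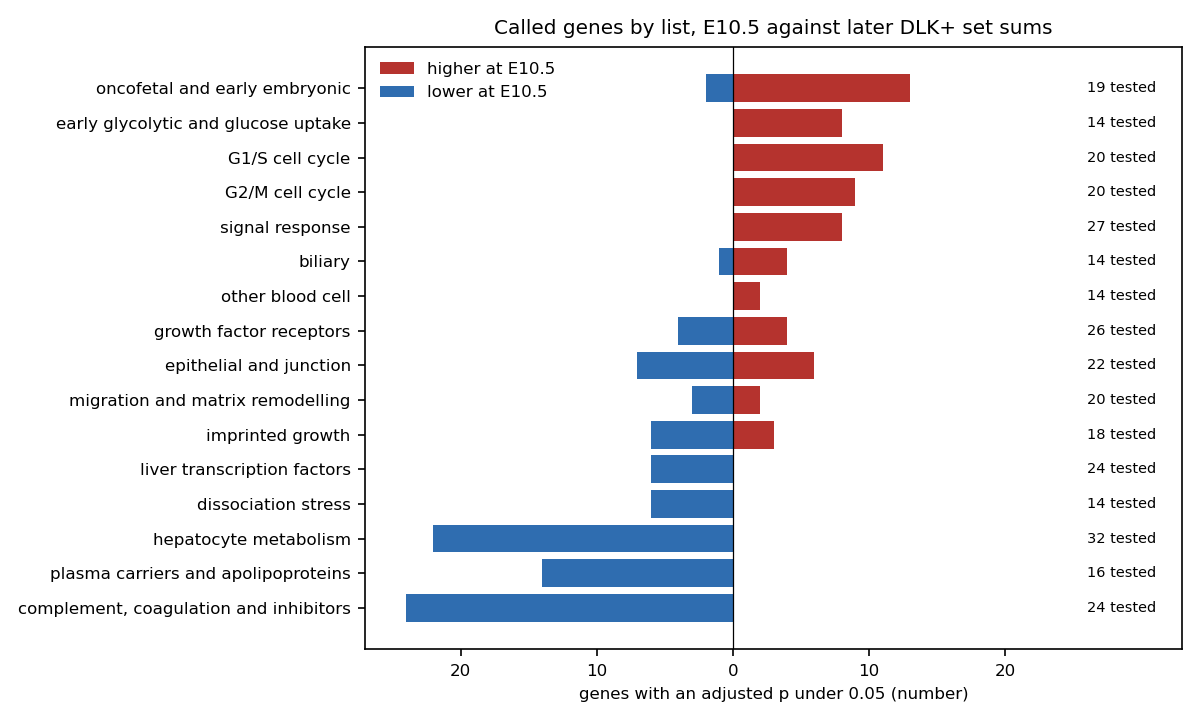
Number of genes called higher (red, to the right of 0) and lower (blue, to the left) at E10.5 than later, for 16 gene lists, with the number tested at the right. Complement and coagulation (24 lower), metabolism (22) and plasma carriers (14) reach farthest on the lower side, and oncofetal (13) and G1/S genes (11) on the higher side.

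Whole-cell measures of the E10.5 sets were compared with later sets as set medians, over sets of at least 5 cells (3 against 17), and 4 measures were tested. The mean log2(CPM + 1) of all 40 cell cycle genes was 6.93 ± 0.0932 (SD, n = 3 sets) against 4.13 ± 1.98 (n = 17), with exact permutation p = 0.0140 and 0.0561 after adjustment over the 4 measures (two-sided). E11.5 sets, at 6.50 to 7.32, enclosed the E10.5 range of 6.83 to 7.02, and E17.5 sets were at 1.44 to 1.72. Genes with a read numbered 9445 ± 80.1 against 8861 ± 568 (exact permutation p = 0.0860, adjusted 0.172). Gene reads per ERCC read were 47.0 ± 9.72 against 65.0 ± 23 (exact permutation p = 0.186, adjusted 0.248). The median correlation between the cells of a set was 0.717 against 0.712 (exact permutation p = 0.582), and no measure passed 0.05 after adjustment. The cell cycle measure did pass without E11.5 set 3 (adjusted exact permutation p = 0.00826) and without E12.5 set 1 (0.0495).

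The bulk libraries of DLK+ cells gave a second reading at far greater numbers of cells. In bulk RNA fewer cells of a type and less RNA per cell cannot be told apart. Of 15275 genes tested there, 4461 were higher at E10.5 (29.2%) and 4443 lower (29.1%), by edgeR's quasi-likelihood test with 2 libraries a day. Of the 1810 cell-level higher genes tested in both, 1363 (75.3%) were higher in bulk, which is 33.1% of the 4113 bulk higher genes. For lower genes 1532 of 1630 (94.0%) were lower in bulk, 36.6% of 4191. Markers of other cell types stood higher in the E10.5 pools than in the picked cells. The 62 markers of the 5 lists summed to 1877 to 2357 CPM in bulk, against 57.2 to 68.4 CPM in the picked cells. The 13 mesenchymal markers summed to 1277 to 1691 CPM in the E10.5 bulk libraries and to 7.59 to 10.8 CPM in the E10.5 sums of picked cells. Mesothelial markers summed to 336 to 462 CPM in bulk against 33.7 to 42.7 CPM, red cell markers to 114 to 181 CPM against 1.06 to 1.59 CPM, other blood cell markers to 54.4 to 56.4 CPM against 8.06 to 17 CPM and endothelial markers to 28.4 to 32.9 CPM against 0.551 to 3.48 CPM. Their part in the bulk calls was not tested.

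For the named groups the bulk gave these values. Mdk was at 382 and 384 CPM at E10.5 against 0.404 to 227 CPM later (3.88 ± 0.23), and Lin28a at 146 and 130.2 CPM against 0.606 to 97.6 CPM (3.23 ± 0.18). Emb was at 141 and 160.3 CPM against 0.91 to 38.3 CPM (4.28 ± 0.19), and Pkm at 1243 and 1193 CPM against 7.48 to 553 CPM (3.67 ± 0.23). Each of these 4 genes had both E10.5 libraries above all later ones. On the lower side, Alb was at 1754 and 1249.7 CPM against 11687 to 242001 CPM (-5.08 ± 0.42), and Mt1 at 9.65 and 10.9 CPM against 199 to 2973 CPM (-7.13 ± 0.34), again without overlap. By list, 16 of 19 oncofetal genes were higher in bulk, and 15 of 16 plasma carriers, all 24 complement and coagulation genes and 28 of 32 metabolism genes lower. Other lists differed more from the cells in their counts. Of all genes tested, bulk called 29.2% higher and 29.1% lower, and the cells 11.7% and 9.73%. The part of these shares in the list counts was not tested. Liver transcription factors had 9 higher and 13 lower of 24 in bulk, against 0 and 6 in the cells. Signal response genes had 14 higher and 5 lower of 27, against 8 and 0. Matrix and migration genes had 10 higher and 3 lower of 20, against 2 and 3. Dlk1, not called in the cells, was lower in the E10.5 bulk (-0.48 ± 0.16, adjusted p = 0.0164), at 2436 and 2370.4 CPM against 1411 to 6441 CPM. That call was lost without either E10.5 library, without E11.5 library 2 and with no filter on low counts. Hnf4a was likewise lower in bulk (-0.71 ± 0.17, adjusted p = 0.00208), a call lost without E10.5 library 2.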

How the data were processed

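The deposited tables give raw read counts per gene, made by the authors with TopHat2 2.1.0, Bowtie2 and HTSeq 0.6.0 on GRCm38/mm10, per the submitters' processing notes, with a gene length in bases beside each gene. They list 40824 genes and 92 ERCC spike-ins, and 39864 identifiers matched GENCODE M21, which gave the coordinates, while 151 genes share a symbol. Whether reads were counted by strand is not given in the sources used here. CPM and TPM were computed from these counts and lengths, not taken from the authors' own TPM tables, which were not used.

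Reads were added up per set of cells, and 42 embryo sums of at least 2 cells (of 46) entered 1 fit. The contrast set E10.5 DLK+ against the equally weighted mean of 6 later days, with edgeR 4.0.16 (R 4.3.3, TMM scaling, filterByExpr with a minimum count of 10, quasi-likelihood test, Benjamini-Hochberg adjusted p below 0.05 over all genes tested). At an unadjusted p under 0.05, 5421 genes passed. The 21 DLK+ sums carry the contrast, and the other sums share in the estimate of spread. DESeq2 1.42.0, RLE scaling, no filter, DLK+ sums alone, thinned cells, sums of at least 5 cells, a set-number block and leaving out each sum were alternatives. Exact permutation tests and cell-level measures used Python 3.11.15, numpy 2.4.6, scipy 1.17.1 and pandas 2.3.3. The scripts were tested on simulated data. Counts carry no molecular identifiers, so duplicates of amplification cannot be removed.

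The members, gene lists and tests were chosen with earlier results of these data known. Genes were named by a rule: the 15 largest rises and 15 largest falls among called genes without overlap and with at least 10 CPM on the higher side, up to 4 called members of each list (2 by level where none was called), the 5 markers, the 15 most variable genes, up to 3 variable members of each list, and the 10 highest by CPM and by TPM. Predicted genes were left out. A planned measure of mitochondrial reads was not made because the tables used here list 0 mitochondrial genes, which left 4 measures. Some named genes are not reported here.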

Additional observations from a re-analysis of the deposited data

How the results depend on the processing

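Of 143 named genes, 106 never changed side of the threshold in the cells and 118 in bulk, and 90 of the 122 called in the cells were called in every alternative. Genes higher at E10.5 numbered 1515 to 2105 over RLE scaling, DESeq2, no filter, DLK+ sums alone, thinned cells, at least 5 cells per sum and the block, and genes lower 1511 to 2014. Leaving out 1 sum at a time gave 1173 to 2393 higher (2393 without E17.5 set 1) and 1192 to 1706 lower. In bulk, leaving out 1 library gave 3273 to 5026 higher and 2807 to 4431 lower, with 2807 without E10.5 library 2. Fewer samples enter each of these fits. The difference in the cell cycle measure was 2.88 with sets of at least 3 cells (adjusted exact permutation p = 0.0481) and 2.57 with means over cells (0.0281), both past the threshold, and 2.63 to 3.00 on leaving out 1 set (adjusted p 0.00826 to 0.281). The cause was not tested. Variable genes numbered 169 at a ratio of at least 3 and 646 to 816 on leaving out 1 set, where fewer sets must pass. Spi1, a blood factor with reads in 1 cell, went from a positive change to -0.37 without E10.5 set 1, which holds that cell, and was 4.61 without set 3. With the set number as a replicate block, 1785 genes were higher and 1615 lower (bulk, with the library number, 4453 and 4384). Deviations of each sum's log levels from the mean of its day were correlated between E10.5 and later sums. These correlations were -0.073 to 0.084 over 16 same-numbered pairs and -0.094 to 0.138 over 38 others, so the numbers were not treated as pairs. Depth limits genes read in few cells: 403 of the higher genes had 5 reads in fewer than 6 cells.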

Other observations

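Trpm2 and 2 other genes stood at different levels in the picked cells and the sorted pools, and were singled out after their values were seen. Trpm2 was at 177, 178 and 88.5 CPM in the E10.5 sums of picked cells, and at 0.219 and 0.345 CPM in the E10.5 bulk libraries. Podxl went the other way, at 4.36, 2.56 and 8.53 CPM in the cells and 74.1 and 104 CPM in bulk, as did Vim, a filament protein of mesenchyme, at 7.93, 6.81 and 7.13 CPM in the cells and 71 and 85.7 CPM in bulk. The picked cells and the pools differ in library protocol as well as in cells, and these cannot be told apart.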
